A study of Homo sapiens with 16 samples.

Results

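Matrix proteoglycans are core proteins that mostly carry glycosaminoglycan chains, and that organise the extracellular matrix or link cells to it. Small leucine-rich proteoglycans bind fibrillar collagen and shape its fibrils, and some of them also bind growth factors such as TGF-β. Versican is a large chondroitin sulfate proteoglycan that binds hyaluronan, while syndecans are transmembrane heparan sulfate proteoglycans that act as co-receptors for matrix proteins and growth factors. Myofibroblastic hepatic stellate cells (HSCs), which lay down scar matrix in the injured liver, are a known source of several of these proteins. To describe how OGT inhibition changed acetylated chromatin around such genes, 10 of them were followed: DCN, LUM, FMOD, PRELP, OGN and ASPN (6 small leucine-rich members), VCAN, and the 3 syndecan genes SDC1, SDC2 and SDC4. They were taken by name from a fixed list, out of 19970 protein-coding genes on the autosomes and chromosome X. A region was given to a gene when any base of it lay in the gene body or within 100 kb of the 5′ end of the gene.

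The regions came from H3K27ac ChIP-seq of LX-2 cells, an established human HSC line of myofibroblastic phenotype grown in serum-containing medium. H3K27ac, the acetylation of lysine 27 of histone H3, marks active promoters and enhancers. In the control arm, 4 replicates received vehicle (DMSO), and in the OGTi arm 4 replicates received 50 µM OSMI-1, an inhibitor of O-GlcNAc transferase (OGT), for 24 h. The other 8 of the 16 samples (input DNA and column purified chromatin) entered no comparison here, although the authors called peaks against input DNA. LX-2 is a single immortal line, so replicates vary as cultures and not as donors.

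The deposited lists hold 3507 regions that lost H3K27ac under OGTi and 3623 that gained it. They give positions only, at the adjusted p threshold of 0.15 in their names. The H3K27ac level of a region in each replicate, the size of its change, its error and the read depth behind it are therefore unknown, and no test over replicates could be made. The values below are places, counts and sequences. A gene without a listed region may be acetylated alike in both arms, changed short of the threshold, or not acetylated at all. These cannot be told apart. As a check of the cell type, 8 of 9 stellate cell and myofibroblast marker genes had a listed region by the same rule, but so did 3 of 3 macrophage, 3 of 3 endothelial and 1 of 3 hepatocyte marker genes. Over all protein-coding genes the share was 45.0%. The stellate cell marker PDGFRB and the macrophage marker CSF1R, both on chromosome 5, had 5 lost regions each. Whether these are the same regions was not examined, so the marker counts may not be separate observations. Within 2500 bp of the 5′ end, 4 of the 9 stellate cell and myofibroblast markers had a lost region and 0 a gained one. None of the other markers had either. Among all protein-coding genes, 1.96% had a lost and 6.41% a gained region there. The lists hold changes and not levels, so the cell type was not tested by regions near or far.

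Listed regions fell in the windows of 5 of the 10 genes. Of the 3 syndecan genes, SDC2 and SDC4 had lost regions only, and SDC1 had none. The region of SDC4 and 1 of the 2 at SDC2 lay closer to the 5′ ends of other genes. Lost regions lay at SDC2 (2), SDC4 (1) and PRELP (2), and gained regions at OGN (1) and ASPN (1). No gene had regions of both kinds, and no region was shared by 2 of the genes. DCN, LUM, FMOD, VCAN and SDC1 had none. Thus 3 of 10 genes (30.0%) had a lost region, against 21.6% of all protein-coding genes, and 2 of 10 (20.0%) had a gained region, against 30.6%. A listed region of either kind was found for 5 of 10 genes, against 45.0%. With 10 genes, each gene moves a share by 10 percentage points, so these shares were near the background and nothing particular to the proteoglycan genes was shown.

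**Figure D1:**
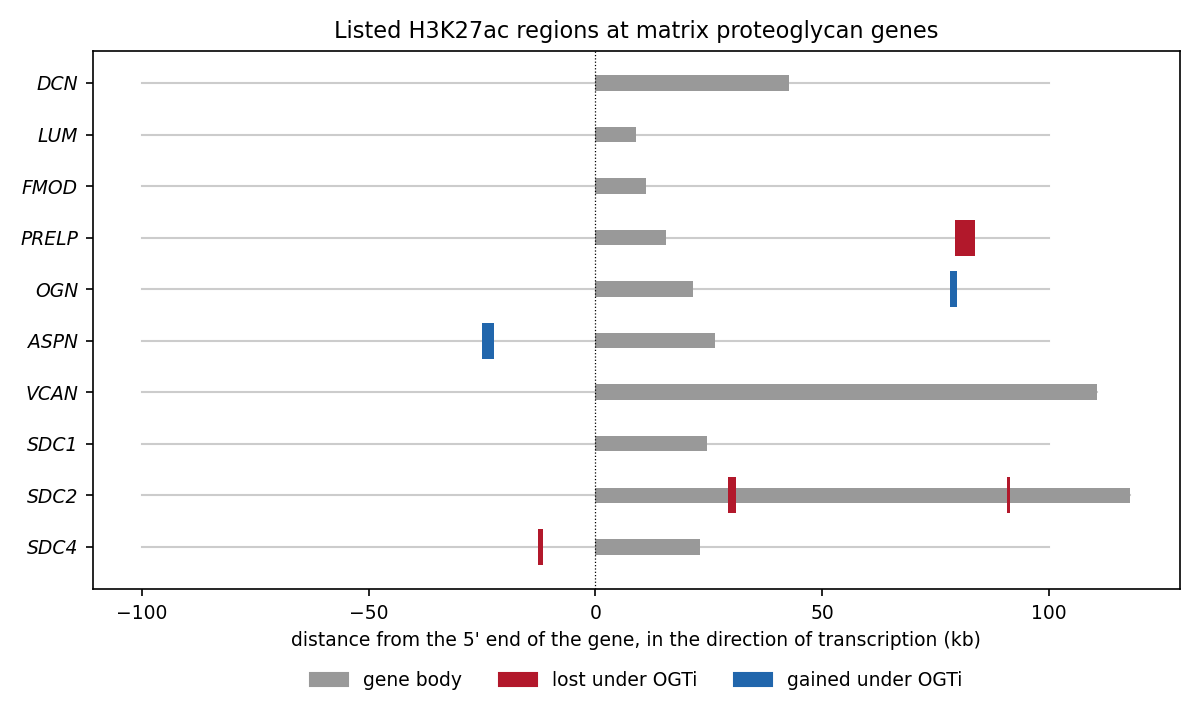
Map of the 10 genes, one row each, with the distance from the 5′ end in kb on the x axis, the gene body in grey, lost regions in red and gained regions in blue. Lost regions sit inside SDC2, upstream of SDC4 and beyond PRELP, gained ones upstream of ASPN and beyond OGN, and the other rows are empty (regions are widened where needed to be visible).

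No listed region lay close to the annotated 5′ end of any of the 10 genes; the starts of their other transcripts were not examined at this distance. Within 2500 bp of that 5′ end, 0 of 10 had a lost and 0 of 10 a gained region, against 1.96% and 6.41% of protein-coding genes, so that few or none would be found among 10 genes at the background shares. The search space around the 10 genes covered 1.70 Mb in 7 intervals, since DCN and LUM, OGN and ASPN, and FMOD and PRELP are neighbours. It held 2.94 lost and 1.17 gained regions per Mb, compared with 1.43 and 1.66 per Mb in the same space around all protein-coding genes. These densities rest on 5 lost and 2 gained regions, and the 2 lost regions of PRELP abut.

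The sequences printed next are parts of the listed regions, shown because they carry the motif matches or base composition described below. They were read from hg38 on the plus strand, and each region is named by its gene and numbered by position. Sequence of the SDC2 regions is not shown. Capitals mark the TEAD core CATTCC, on either strand, in PRELP-1 and SDC4-1. In PRELP-2 they mark the TEAD core and the AP-1 site TGANTCA. In ASPN-1 they mark the AP-1 site and the ATF4-C/EBP site TGATGCA, which is on the minus strand and so appears as its reverse complement, and in OGN-1 the CG dinucleotides.
PRELP-1, chr1:203555410-203555495: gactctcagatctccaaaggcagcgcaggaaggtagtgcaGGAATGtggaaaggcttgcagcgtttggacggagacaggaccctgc
PRELP-2, chr1:203558468-203558593: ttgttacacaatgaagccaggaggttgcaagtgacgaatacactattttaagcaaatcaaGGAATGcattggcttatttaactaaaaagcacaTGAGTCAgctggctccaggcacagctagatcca
SDC4-1, chr20:45360048-45360133: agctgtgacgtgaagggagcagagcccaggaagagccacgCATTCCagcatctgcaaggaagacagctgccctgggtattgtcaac
ASPN-1, chr9:92506354-92506640: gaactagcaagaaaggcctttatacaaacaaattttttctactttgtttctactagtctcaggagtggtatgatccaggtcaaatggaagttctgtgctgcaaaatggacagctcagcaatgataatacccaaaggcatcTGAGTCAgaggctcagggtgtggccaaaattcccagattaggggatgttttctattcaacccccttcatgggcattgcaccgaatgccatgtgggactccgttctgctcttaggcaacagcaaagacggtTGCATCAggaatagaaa
OGN-1, chr9:92325610-92325759: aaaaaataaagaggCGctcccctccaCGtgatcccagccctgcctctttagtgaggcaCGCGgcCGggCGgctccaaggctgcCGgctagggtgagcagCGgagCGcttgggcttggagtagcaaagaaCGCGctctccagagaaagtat

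The syndecan genes were examined first. SDC2 (chr8:96493813-96611790, plus strand, 118 kb) encodes a syndecan of mesenchymal cells. Its lost regions lay at chr8:96523065-96524898 (SDC2-1, 1834 bp) and chr8:96584541-96584740 (SDC2-2, 200 bp), both in intron 1 of the canonical transcript, which has 5 exons. SDC2-1 began 29.3 kb from the 5′ end of SDC2, the only protein-coding 5′ end within 100 kb of it. SDC2-2 began 90.7 kb from that 5′ end, and the 5′ end of the carboxypeptidase gene CPQ was closer, at 60.5 kb. The 2 regions were 59.6 kb apart. They differed in size, since SDC2-1 was near the median width of lost regions (1905 bp), whereas SDC2-2 had the smallest width in the list, which 21 lost regions share. No gained region lay closer than 494 kb to the 5′ end of SDC2, and 7.60% of protein-coding genes had a lost region closer than SDC2.

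SDC4 (chr20:45325288-45348424, minus strand), whose product is found in focal adhesions, had 1 lost region at chr20:45360008-45361013 (SDC4-1, 1006 bp). It overlapped no annotated gene and lay 11.6 kb upstream of the 5′ end of SDC4. Only 3.94% of protein-coding genes had a lost region closer to the 5′ end. However, SDC4-1 was 924 bp from the 5′ end of SYS1, a gene for a Golgi membrane protein, and 2187 bp from that of the readthrough gene SYS1-DBNDD2. It lay within 100 kb of the 5′ ends of 8 protein-coding genes in all, among them MATN4, which encodes a matrilin of the matrix. Position alone therefore does not tie the loss to SDC4. SDC1 (chr2:20200797-20225433), the syndecan best known from epithelial and plasma cells, had no region in the window. Its nearest gained region was 124 kb upstream of its 5′ end and its nearest lost region 313 kb downstream.

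Among the small leucine-rich genes, PRELP (chr1:203475806-203491352, plus strand), whose product anchors basement membranes to connective tissue, was the only one with lost regions. PRELP-1 (chr1:203555188-203557070, 1883 bp) and PRELP-2 (chr1:203557071-203559489, 2419 bp) abutted, with 79.4 kb between PRELP-1 and the 5′ end of PRELP. They were intergenic, 63.8 kb and 65.7 kb past the 3′ end of the gene. The 5′ ends of OPTC (61.0 kb from PRELP-1), which encodes the small leucine-rich protein opticin, and of the calcium pump gene ATP2B4 (69.8 kb) were both closer than that of PRELP. For FMOD (chr1:203340628-203351758, minus strand), a regulator of collagen fibril assembly on the same chromosome arm, PRELP-1 was the nearest lost region, 203 kb upstream of the 5′ end and outside the window.

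OGN (chr9:92383268-92404696) and ASPN (chr9:92456205-92482506) encode mimecan and asporin, and both genes lie on the minus strand inside CENPP, a kinetochore protein gene of 295 kb on the plus strand. The region of OGN was gained at chr9:92324965-92326404 (OGN-1, 1440 bp), 78.3 kb downstream of its 5′ end and 56.9 kb past its 3′ end. OGN-1 covered the 5′ ends of CENPP and of NOL8, a nucleolar protein gene in the opposite orientation. In all, 3 protein-coding 5′ ends (CENPP, NOL8 and IARS1) were closer to OGN-1 than that of OGN. OGN-1 thus lay at the promoters of other genes and fell in the window of OGN by distance alone. The region of ASPN was gained at chr9:92504968-92507422 (ASPN-1, 2455 bp), 22.5 kb upstream of its 5′ end, the nearest protein-coding one. The centre of ASPN-1 lay in intron 6 of ECM2, a matrix protein gene of 10 exons, and in intron 5 of CENPP, and the region touched exon 7 of ECM2. The 5′ end of ECM2 was 29.2 kb away. ASPN-1 was 100.3 kb from the 5′ end of OGN and was thus just outside its window. The nearest lost regions of OGN and ASPN were 728 kb and 650 kb from their 5′ ends.

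DCN (chr12:91140484-91183217) and LUM (chr12:91102629-91111494) encode decorin and lumican, abundant collagen-binding proteoglycans of fibrous tissue. The nearest lost region was 1160 kb from the 5′ end of DCN and 1090 kb from that of LUM, and the nearest gained region 894 kb and 966 kb. More than 80% of protein-coding genes had closer regions of each kind (82.1% and 82.6% for DCN, 80.5% and 84.1% for LUM). VCAN (chr5:83471618-83582303, plus strand, 111 kb) had the most distant lost region of the 10 genes, at 1540 kb, and its nearest gained region was at 393 kb. For comparison, the median distance over protein-coding 5′ ends was 360 kb (quartiles 131 and 874 kb) for lost and 235 kb (quartiles 78.6 and 609 kb) for gained regions. The loci were also unlike in gene density. No other protein-coding 5′ end lay within 100 kb of that of VCAN, SDC1 or SDC2, 1 lay near DCN and 8 near SDC4, with a median of 3 over protein-coding genes.

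**Figure D2:**
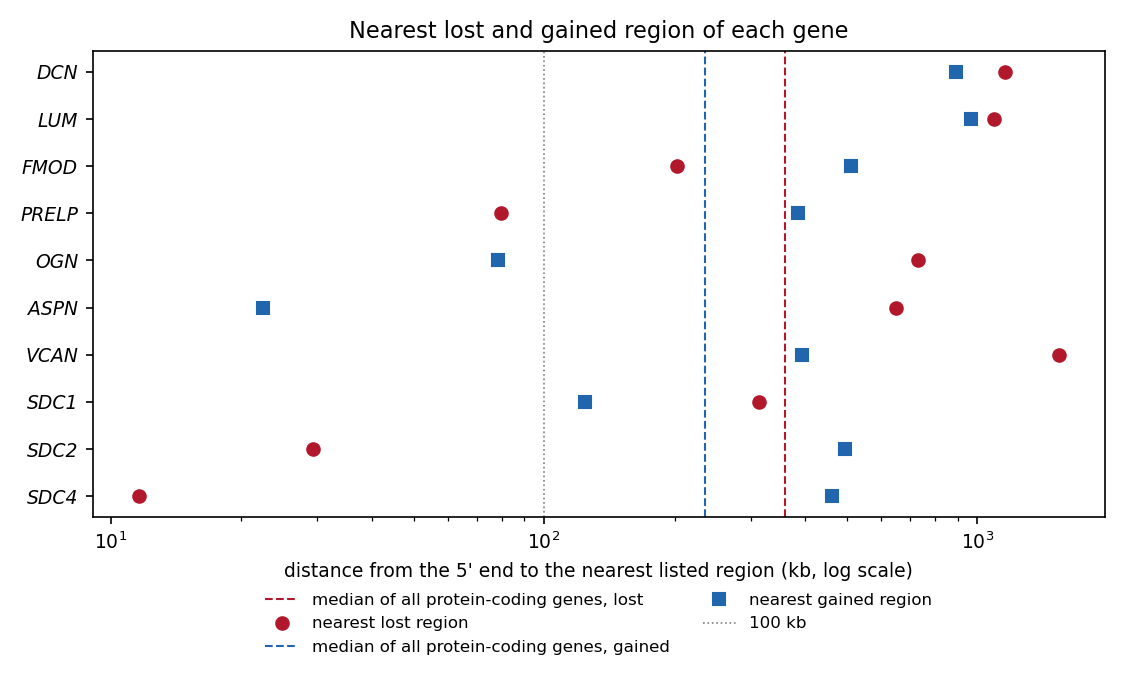
Distance from the 5′ end of each gene to its nearest lost (red circles) and gained (blue squares) region in kb on a log scale, with the medians of 19970 protein-coding genes as dashed lines and the 100 kb window as a dotted line. SDC4, SDC2 and PRELP have lost regions at 11.6, 29.3 and 79.4 kb, whereas those of DCN, LUM and VCAN lie beyond 1000 kb.

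Base composition differed among the 7 regions, and each was set beside all regions of its direction. The 5 lost regions had a CpG observed/expected ratio between 0.154 (PRELP-2) and 0.297 (SDC2-1), around the median of 0.202 over all lost regions. Their GC content ranged from 40.6% (SDC2-1) to 54.3% (PRELP-1), with a median of 46.8% over all lost regions. The gained regions were unlike each other. OGN-1 held 94 CG dinucleotides in 1440 bp and had a ratio of 0.766, higher than 85.0% of gained regions, as its capitals show above. ASPN-1 held 14 in 2455 bp and had a ratio of 0.139, higher than 17.2% of gained regions.

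**Figure D3:**
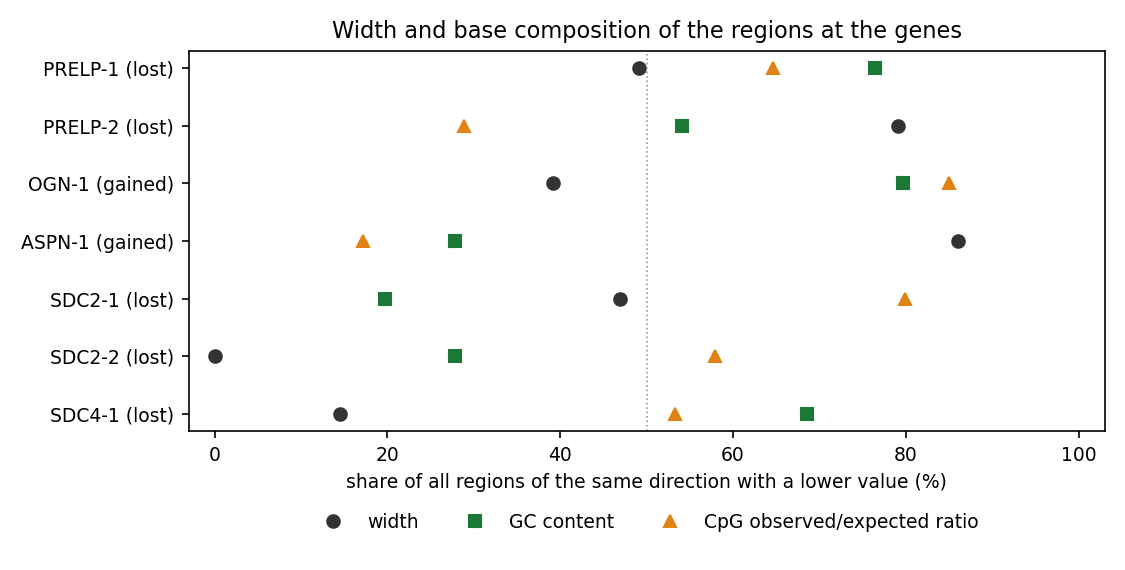
Share of all regions of the same direction with a lower value than each of the 7 regions, in percent, for width (circles), GC content (squares) and CpG observed/expected ratio (triangles). OGN-1 lies at 85.0% and ASPN-1 at 17.2% for the CpG ratio, and SDC2-2 at 0 for width.

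The TEAD motif was searched next, because the study asked about TEAD factors. The core CATTCC was present on either strand in 4 of the 5 lost regions and in 0 of the 2 gained ones, whereas it was found in 73.5% of all lost and 58.8% of all gained regions. For the core over whole regions, the share in the lost regions was thus close to the background. SDC2-1 and PRELP-1 held 4 matches each, more than 91.3% and 91.1% of lost regions within 20% of their width, while PRELP-2 and SDC4-1 held 1 each. SDC2-2, the region of 200 bp, held none, and 4.00% of lost regions of its length held any. With an A or G before the core and an A or T after it, SDC2-1 had 3 matches and PRELP-1, PRELP-2 and SDC4-1 had 1 each, and 42.9% of all lost regions held this longer form. ASPN-1 had no TEAD core, although 74.8% of gained regions of its length did, and OGN-1 had none against 56.6%.

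The other motifs were searched in the same 5 lost and 2 gained regions, too few to compare how evenly a motif was spread. An AP-1 site was found in 2 of the 5 lost regions, PRELP-2 (2 matches) and SDC4-1 (1 match), against 56.5% of all lost regions, and in ASPN-1 of the 2 gained ones, against 53.6%. In PRELP-2 an AP-1 site and the TEAD core were close enough to appear in the same printed window. The ATF4-C/EBP site was present once in PRELP-1 and once in ASPN-1, and in 17.6% of all lost and 19.7% of all gained regions. The RUNX site TGTGGT was present in SDC2-1, SDC2-2 and SDC4-1 among the lost regions (3 of 5, against 68.1% of all lost regions) and in both gained regions (against 2172 of all 3623 gained regions), of which ASPN-1 held 4 matches, more than 90.4% of gained regions of its length. No region held the SRF CArG box, which was found in 14.7% of all lost and 7.76% of all gained regions.

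**Figure D4:**
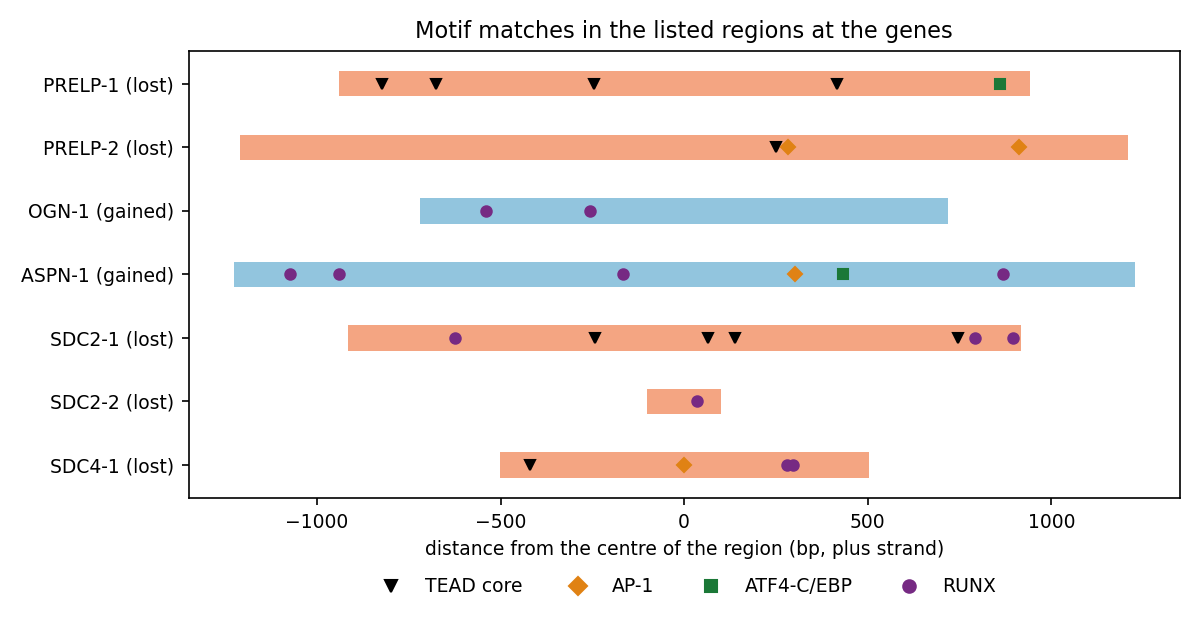
Motif matches in the 7 regions by distance from the region's centre in bp on the plus strand, with lost regions in orange and gained regions in pale blue, and a symbol for each TEAD core, AP-1, ATF4-C/EBP and RUNX match. TEAD cores are seen in PRELP-1, PRELP-2, SDC2-1 and SDC4-1 and in neither gained region.

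Other genes for proteoglycan core proteins and related matrix proteins were taken as a wider list of 36 genes, called proteoglycan genes below. By the same rule, 13 of them (36.1%) had a lost region, against 21.6% of all protein-coding genes. A gained region was found for 13 (36.1%), against 30.6%, and 3 genes had both. OPTC shares its lost regions with PRELP, and ECM2 and OMD share gained regions with ASPN and OGN, so these are not further observations. Of the genes with 3 or more regions, those with losses alone were COL18A1 (7 lost), which encodes a basement membrane collagen with heparan sulfate chains, TSKU (5 lost), a small leucine-rich protein, and HSPG2 and GPC1 (3 lost each), which encode perlecan and a glypican. Gains alone were seen at CD44 (4 gained), the hyaluronan receptor, GPC2 (4 gained) and ESM1 (3 gained), which encodes endocan. SPOCK1 (5 lost, 1 gained) and CSPG4 (2 lost, 1 gained) had both kinds. The share of all protein-coding genes with 3 or more regions was not computed. More sequence is searched in long genes such as SPOCK1 (623 kb) and COL18A1 (109 kb). Some regions were also far, since the nearest lost region of GPC1 was 60.4 kb and the nearest gained region of GPC2 56.8 kb from the 5′ end. Whether other genes lay closer to these regions was not examined. Near the 5′ end, within 2500 bp, TSKU had 1 and HSPG2 had 2 lost regions, while CD44 and PODNL1 had 1 gained region each. Thus 2 of the 36 genes had a lost and 2 a gained region there, against 1.96% and 6.41% of protein-coding genes. PODNL1, a small leucine-rich gene, is named because it completes this count. Loss and gain were thus both present among the wider proteoglycan genes. Whether their shares differ from those of all protein-coding genes was not tested.

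**Figure D5:**
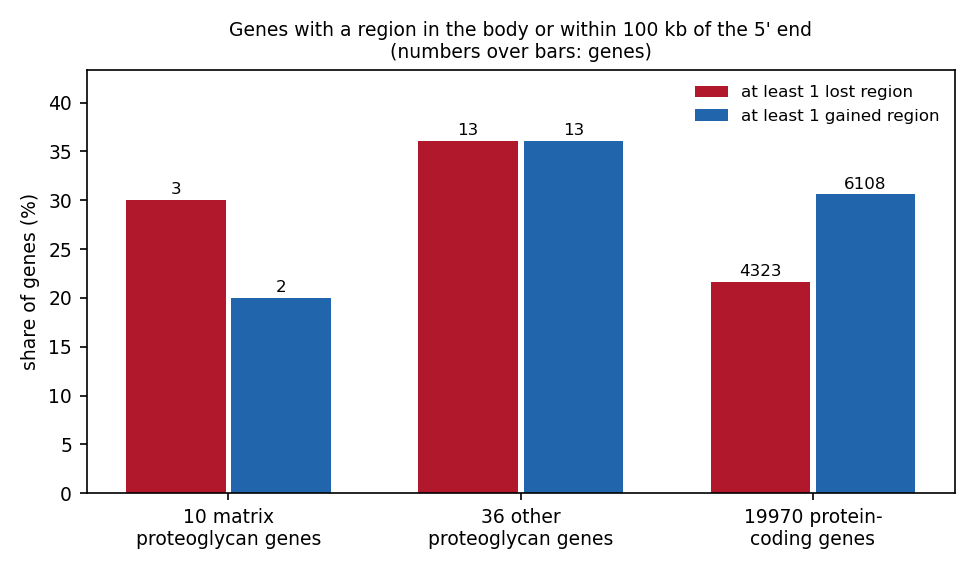
Share of genes in percent with at least 1 lost (red) or gained (blue) region in the gene body or within 100 kb of the 5′ end, for the 10 genes, 36 other proteoglycan genes and 19970 protein-coding genes, with the number of genes over each bar. The bars of the 10 genes stand for 3 and 2 genes.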

How the data were processed

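H3K27ac ChIP-seq was performed on LX-2 cells treated with vehicle or OSMI-1 (4 replicates in each arm). The authors mapped reads to hg38 with Chromap, called peaks per replicate against input DNA with MACS2 (version 2.1.1.20160309 in the submitters' processing notes), removed duplicates and blacklisted regions, and compared the arms with MAnorm2 over all 8 libraries. MAnorm2 splits a broad peak into bins, so regions that abut can come from 1 peak. The deposited lists hold 3 columns (chromosome, start, end) and no signal, ratio or p-value. Their names give an adjusted p threshold of 0.15, although the study's methods state a lower value, and read depth is unknown.

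Starts were converted to count from 1. Genes came from GENCODE release 44 on hg38 (the study used an earlier release), and sequences from hg38. Protein-coding genes on 23 chromosomes served as background. Motifs were searched on both strands with Python 3.11.15, and overlapping matches of the TEAD core and its longer form are the same site. Percentiles give the share of regions or genes with a lower value. Counting and search were tested on simulated data. The 10 genes, the wider list and the markers were chosen with earlier results of these data known. The genes named were the 10 genes and those of the wider list with 3 or more regions. Genes that overlapped a region of the 10, or lay nearest to it, were also named, as were genes closer to it than the gene it was given to. MATN4, a matrix gene, was named beyond this rule, as were PODNL1, the markers PDGFRB and CSF1R, and the relatives in the last section. No test was made, since no replicate values were used here.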

Additional observations from a re-analysis of the deposited data

How the results depend on the processing

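No paired analysis was possible because a list of positions carries no measurement for any replicate. Neither dropping replicates in turn nor tightening the threshold could be tried, and what depth limits is unknown. Of 28 counts under an alternative setting, 20 were within 1.5 times the main count. With a window of 50 kb, 3 lost regions (SDC2 and SDC4) and 1 gained region at 1 gene (ASPN) were left. With a window of 200 kb, 4 gained regions were counted, at OGN, ASPN and SDC1. With the gene body and 2500 bp before the 5′ end only, 2 lost regions at 1 gene (SDC2) and 0 gained regions at 0 genes were left. SDC2 was thus the only gene with a region under each of these settings. However, its body of 118 kb was the longest of the genes followed, and longer than 84.9% of protein-coding genes. The gene body setting searches more sequence in a long gene. The shares of all protein-coding genes under these settings were not computed, so whether SDC2 stands out in this was not tested. The counts of regions and genes stayed within 1.5 times when the region's centre was used. They also did when regions within 1000 bp of each other were counted once, and when the 5′ ends of all transcripts were used. The TEAD counts were 4 lost and 0 gained regions with the longer form and in the central 1000 bp too. The background moved, however. Of all lost regions, 73.5% held the core, 42.9% the longer form and 57.3% the core in the central 1000 bp. For gained regions these shares were 58.8%, 27.5% and 42.9%. Whether the regions at the 10 genes differ from these shares was not tested.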

Other observations

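Some relatives of the 10 genes in the wider list are named here after their values were seen, so they do not stand for the list. BGN, the gene for biglycan and the nearest relative of DCN, had 2 lost regions, the nearer of them 5.99 kb from its 5′ end on chromosome X, and 0 gained regions. KERA, the neighbour of LUM, had 0 regions of either kind, and OMD had 0 lost and 2 gained regions. SDC3, the remaining syndecan gene, had 2 lost and 0 gained regions, the nearer 49.0 kb from its 5′ end. Lost regions were thus found for SDC2, SDC3 and SDC4 and not for SDC1, whereas 21.6% of all protein-coding genes had one. However, SDC4-1 and SDC2-2 lay closer to the 5′ ends of other genes, and whether the SDC3 regions did was not examined. Whether syndecan genes differ from other genes in having lost regions was not tested.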
